A study of Homo sapiens with 32 samples.

Results

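Uracil-enriched genomic regions were compared between HCT116 cells that stably express UGI without any drug (NT_UGI) and unmodified, non-treated HCT116 cells (WT). The region lists of 4 enriched libraries were taken by their labels, 2 of NT_UGI and 2 of WT, out of 15 enriched libraries with a region list and 32 samples in the whole series. HCT116 is a human colorectal carcinoma line that lacks DNA mismatch repair (MMR). WT cells carried no transgene and received no treatment. NT_UGI cells were the same line after viral transduction with UGI together with EGFP and sorting for GFP-positive cells, without a drug. No library of cells with an empty vector was among these samples, so UGI expression and the transduction and sorting that came with it cannot be told apart. UGI is absent from the human reference, so the transgene could not be checked in region lists, and a list of DNA regions carries no expression level by which the cell line could be checked. Replicate 1 and replicate 2 are independent biological samples in the study's methods, and the spread between them covers culture, pull-down and sequencing together. The study's methods name 2 sequencing platforms, and which library ran on which is not given in the sources used here, so a part of the platform in any difference was not tested.

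As background, uracil enters DNA when a polymerase uses dUTP in place of dTTP opposite adenine, or when cytosine loses its amino group. Uracil-DNA glycosylase, encoded by UNG, cuts most of it out and starts base excision repair, with SMUG1, TDG and MBD4 as further uracil-excising enzymes. UGI is a small bacteriophage protein that binds UNG tightly and blocks it, so uracil stays in the DNA for longer. In U-DNA-Seq, sonicated genomic DNA is pulled down with a catalytically inactive UNG sensor (ΔUNG) that binds uracil without removing it, and the pulled-down DNA is compared with the input. Each region is a run of adjacent 100 bp bins whose log2 ratio of enriched over input coverage lies above a threshold, and its value is read here as the mean of that log2 ratio.

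Stretches of the regions are given here as examples, and what carries the signal in them was not tested. Printed below are the central 200 bases of 4 stretches, from the plus strand of GRCh38, 5′ to 3′, with G and C in capitals to show the base composition, on which region bases differ from the genome. The first is the stretch of at least 1 kb with the highest log2 value among those in regions of all 4 libraries (chr14:16089901-16097300, with no annotated gene), the second the longest in both NT_UGI libraries and no WT library (chr2:83760301-83766900, with no annotated gene, 657 kb from SUCLG1), and the third the longest in both WT libraries and no NT_UGI library (chr7:11703101-11710900, within THSD7A and outside its exons). The fourth, the longest stretch in regions of all 4 libraries (chr12:79455701-79482600, in a lncRNA locus 3.69 kb from SYT1, which encodes a synaptic vesicle protein), was chosen after its values were seen.
Shared, highest value, chr14:16093501-16093700: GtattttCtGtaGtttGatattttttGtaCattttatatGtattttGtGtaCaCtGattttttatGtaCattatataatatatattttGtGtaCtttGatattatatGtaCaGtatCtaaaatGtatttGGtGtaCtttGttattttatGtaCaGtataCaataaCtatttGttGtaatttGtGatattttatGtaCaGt
NT_UGI, longest, chr2:83763501-83763700: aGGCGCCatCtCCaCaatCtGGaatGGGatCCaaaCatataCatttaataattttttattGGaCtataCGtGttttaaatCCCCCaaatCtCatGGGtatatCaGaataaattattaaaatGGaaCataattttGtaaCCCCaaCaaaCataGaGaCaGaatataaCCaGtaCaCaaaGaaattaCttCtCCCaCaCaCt
WT, longest, chr7:11706901-11707100: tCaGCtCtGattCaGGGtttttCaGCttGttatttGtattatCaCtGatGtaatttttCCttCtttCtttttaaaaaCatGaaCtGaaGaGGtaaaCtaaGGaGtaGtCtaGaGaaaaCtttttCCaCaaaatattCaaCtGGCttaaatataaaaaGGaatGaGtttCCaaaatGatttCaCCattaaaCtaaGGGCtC
Shared, longest, chr12:79469051-79469250: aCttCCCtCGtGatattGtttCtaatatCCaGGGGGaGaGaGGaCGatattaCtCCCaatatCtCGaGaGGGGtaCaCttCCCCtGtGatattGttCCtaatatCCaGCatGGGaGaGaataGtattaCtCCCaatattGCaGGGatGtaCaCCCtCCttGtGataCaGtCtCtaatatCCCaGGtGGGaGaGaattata

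The shared stretch on chromosome 14 had log2 values of 1.35 and 1.16 in WT and of 1.19 and 1.24 in NT_UGI, and 26.96% of its 7400 bases were G or C. The longest shared stretch spanned 26900 bases with a GC content of 39.4% (43.5% in the bases printed), close to the 40.9% of the genome, and with log2 values of 0.82 and 0.72 in WT and of 0.96 and 0.90 in NT_UGI. Stretches that both replicates of a condition held and the other condition lacked were much shorter. The longest of NT_UGI was 6600 bases, at log2 values of 0.44 and 0.50, and the longest of WT was 7800 bases, at 0.49 and 0.46. In the MMR-proficient HCT116 cells that express UGI (NT_UGI_MMR, 2 libraries), regions covered 0% and 13.6% of the NT_UGI stretch and 17.9% and 0% of the WT stretch. In K562, an untreated leukaemia line with 1 library, regions covered 0% of the NT_UGI stretch and 100% of the WT stretch. The longest condition-specific stretch of NT_UGI was thus absent from 2 of these 3 further libraries, K562 included, and lay outside annotated genes.

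Replicate 2 of NT_UGI stood apart from the other libraries by a low overlap and a low share of exons. Overlap was measured by the Jaccard index, the bases in regions of both libraries over the bases in regions of either. The index of NT_UGI replicate 2 with the 6 other non-treated libraries (WT, NT_UGI replicate 1, NT_UGI_MMR and K562) averaged 0.352 ± 0.0128 (SD, range 0.338 to 0.374), against 0.387 ± 0.0192 over the 15 pairs without it. Exons of protein-coding genes held 1.39% of its region bases, against 1.63% to 1.70% in the other 3 libraries of WT and NT_UGI. Results that rest on it are given below with and without it. NT_UGI replicate 1 lay on the other side, with a mean index of 0.403 ± 0.0178 (SD, range 0.374 to 0.428) with its 6 others.

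The first question was whether UGI expression moved the regions to other places in the genome, so that replicates would resemble each other more than libraries of different conditions. They did not. The Jaccard index was 0.373 between the WT replicates and 0.374 between the NT_UGI replicates. Between conditions it was 0.411 for replicate 1 of each, 0.404 for NT_UGI replicate 1 with WT replicate 2, 0.351 for NT_UGI replicate 2 with WT replicate 1 and 0.343 for replicate 2 of each. NT_UGI replicate 1 thus shared more with either WT library than with its own replicate. The mean within conditions (0.373) differed from the mean between them (0.377 ± 0.0349, SD, n = 4 pairs) by -0.0038, which is smaller than the spread of the pairs. In the exact permutation test over the 3 ways to pair 4 libraries, the one-sided p for more similar replicates was 1. The two-sided p was 0.333, which is the smallest p that this test can give. Without NT_UGI replicate 2 the difference was -0.0343 and without NT_UGI replicate 1 it was 0.0258, so that the direction depends on which NT_UGI library is used. The merged WT and NT_UGI lists, made from the pooled reads of these libraries, had a Jaccard index of 0.512, above every pair of single libraries, and have no replicates to set it against.

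**Figure D1:**
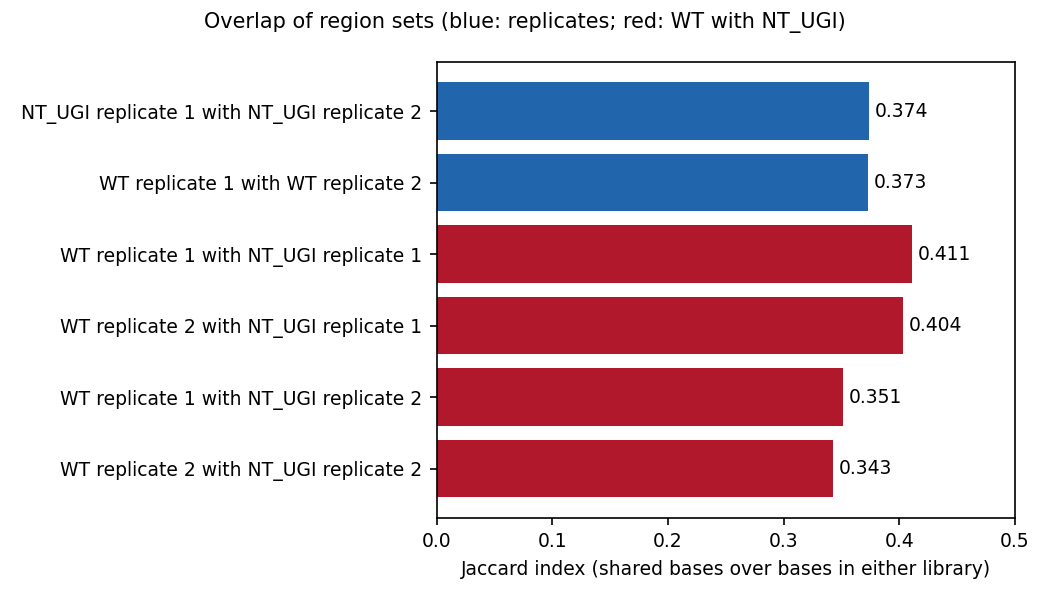
Jaccard index of region sets for the 6 pairs of the 2 WT and 2 NT_UGI libraries; each bar is 1 pair, blue for replicates of a condition and red for WT with NT_UGI. The replicate pairs (0.373 and 0.374) lie between the pairs of NT_UGI replicate 1 with WT (0.404 and 0.411) and those of NT_UGI replicate 2 with WT (0.343 and 0.351).

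Sorting bases by how many of the 4 libraries held them showed a shared core and a wide fringe. Regions of at least 1 library covered 638.2 Mb, or 21.7% of the known bases of the genome. Regions of all 4 covered 96.7 Mb in 60289 stretches, and regions of a single library covered 277.0 Mb. Bases in both NT_UGI libraries and no WT library came to 24.1 Mb in 39465 stretches, and bases in both WT libraries and no NT_UGI library to 25.5 Mb in 42148 stretches. These condition-specific bases were close in amount, and both kinds were cut into short pieces with a median length of 400 bp. At least 5 kb was reached by 36 stretches of the NT_UGI kind and by 34 of the WT kind.

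The condition-specific bases resembled the fringe rather than the core. GC content was 34.3% in the NT_UGI-specific and 34.6% in the WT-specific bases, 34.5% in all bases held by 2 libraries, 35.9% in bases of a single library and 32.1% in the core, while 42.6% of the bases in no region were G or C. Mean log2 values in NT_UGI-specific bases were 0.40 and 0.42 in the NT_UGI replicates, and in WT-specific bases 0.44 and 0.35 in the WT replicates. In the core the same libraries had 0.46 and 0.47 for NT_UGI and 0.50 and 0.40 for WT. NT_UGI-specific bases lay in regions of NT_UGI_MMR for 43.6% and 43.997% of their length and in K562 regions for 43.3%. WT-specific bases lay in NT_UGI_MMR regions for 40.5% and 41.2% and in K562 regions for 40.1%. A K562 library without UGI therefore held as much of the NT_UGI-specific bases as the MMR-proficient libraries with UGI did, to within 1 percentage point.

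Long regions overlapped another library more often than short ones, as overlap by any base grows with length alone. Of the regions of NT_UGI replicate 1, 60.8% overlapped a region of WT replicate 1 and 60.5% a region of WT replicate 2, against 58.5% for its own replicate. Of the regions of NT_UGI replicate 2, 53.6% and 53.1% overlapped the WT libraries, against 53.1% for its own replicate. Among regions of at least 10 kb, 99.6% of those of NT_UGI replicate 1 overlapped WT replicate 1, whereas of its regions under 1 kb 39.9% did. Regions of NT_UGI replicate 1 with no counterpart in WT replicate 1 had a median length of 700 bp and a median distance of 3700 bp to the nearest WT region, and 75.7% of them lay within 10 kb of a WT region. This distance is below the 5000 bp over which the coverage had been smoothed.

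The regions had like lengths in both conditions. NT_UGI replicate 1 had 118883 regions over 320.8 Mb and replicate 2 had 140592 over 325.1 Mb. WT replicate 1 had 136881 regions over 330.9 Mb and WT replicate 2 had 145393 over 327.7 Mb. The NT_UGI total was lower in both replicates, and each total follows from a threshold that the authors tuned. In the merged lists it was higher, with 326.9 Mb in NT_UGI and 318.7 Mb in WT. The N50, the length at or above which regions hold 50% of all region bases, was 5300 and 4900 bp in NT_UGI and 5100 and 5000 bp in WT (means 5100 ± 283 and 5050 ± 70.7 bp, SD, n = 2). The difference of 50 bp was smaller than the spread within NT_UGI, and the exact permutation p was 1. Longest regions were 64400 and 45800 bp in NT_UGI and 53000 and 51700 bp in WT, so that the NT_UGI replicates bracketed both WT replicates. Regions of at least 10 kb held 19.9% and 14.6% of region bases in NT_UGI and 16.8% and 15.5% in WT.

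The level of enrichment in shared regions did not separate the conditions. Over the bases in regions of all 4 libraries, mean log2 values were 0.46 and 0.47 in NT_UGI and 0.50 and 0.40 in WT, which makes means of 0.47 ± 0.0027 and 0.45 ± 0.067 (SD, n = 2). The difference of 0.02 was far within the spread between the WT replicates, and the exact permutation p was 1. Without WT replicate 2 the difference became -0.03. Coverage was scaled to the same mean in each library before the ratio was taken, and each library had its own threshold (0.33 and 0.25 in WT, 0.29 and 0.32 in NT_UGI), so these values describe where uracil is enriched within a library and not the total amount of uracil in the DNA.

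**Figure D2:**
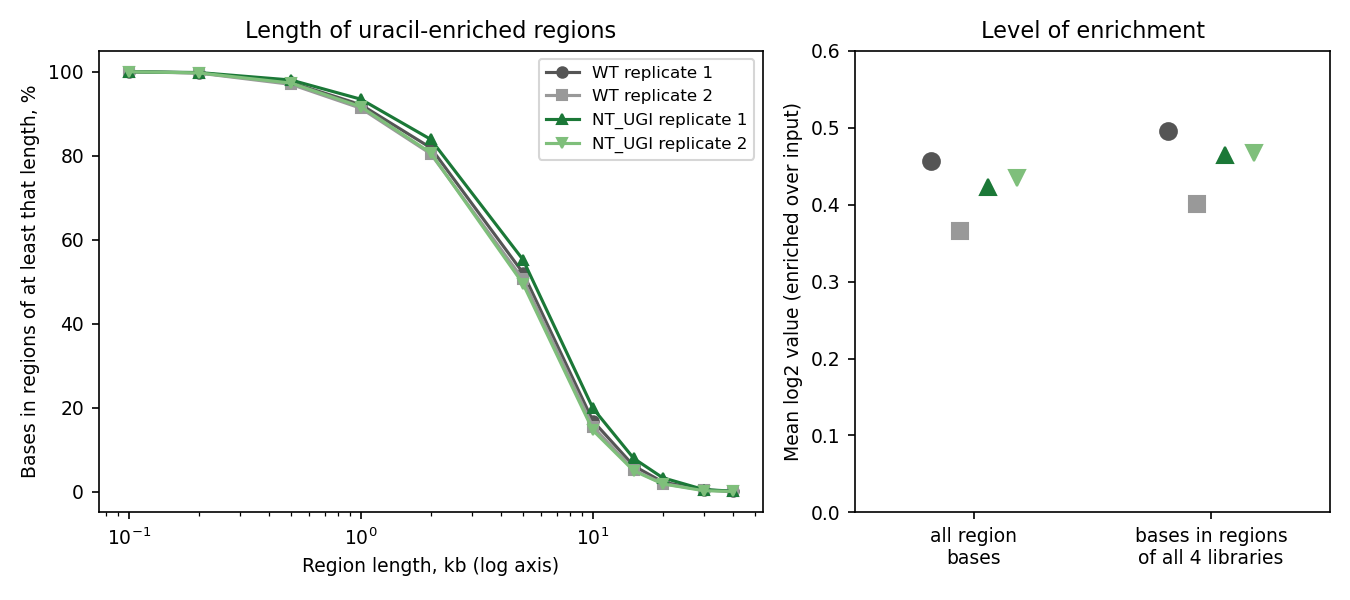
Left, share of region bases (%) in regions of at least the length on the x axis (kb, log axis) for each of the 4 libraries; right, mean log2 value of enriched over input for each library, over all region bases and over bases in regions of all 4 libraries. The length curves have a like shape, and at 10 kb they read 19.9% and 14.6% in NT_UGI and 16.8% and 15.5% in WT. Both NT_UGI values of the shared bases (0.46 and 0.47) lie between those of WT (0.40 and 0.50).

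Region bases were richer in A and T than the genome in both conditions. GC content of region bases was 33.5% and 33.9% in NT_UGI and 33.8% and 33.9% in WT, against 40.9% over the genome. The means (33.7% ± 0.275 and 33.8% ± 0.0580, SD, n = 2) differed by 0.0913 points, less than the spread within NT_UGI. CpG occurred 5.19 and 5.26 times per kb in NT_UGI and 5.25 and 5.33 times in WT, against 10.01 over the genome. The dinucleotide TC, counted on both strands and the context that APOBEC3 deaminases favour, occurred 109.4 and 110.1 times per kb in NT_UGI and 109.9 and 109.8 times in WT, against 119.4 over the genome. CpG and TC both hold a C, and neither count was corrected for the lower GC content of region bases. The gap to the genome thus gives no preference for or against these contexts.

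Covered share, the percent of known bases that lie in regions, fell steeply with the GC content of 100 kb bins in all 4 libraries. In the 4054 bins under 36% GC it was 41.9% and 37.8% in NT_UGI and 40.7% and 39.9% in WT. In the 2923 bins with 48% GC or more it was 0.147% and 0.381% in NT_UGI and 0.188% and 0.212% in WT. NT_UGI replicate 1 had the steepest and NT_UGI replicate 2 the flattest slope, with both WT libraries between them. From 38% GC upwards NT_UGI replicate 2 had the highest and NT_UGI replicate 1 the lowest covered share of the 4 in each class. Of the 8 classes only that from 36% to 38% GC kept the groups apart, with 17.2% and 17.6% in NT_UGI below 18.2% and 17.8% in WT. The GC slope moved with the low overlap and the low exon share of NT_UGI replicate 2, and its part in them was not tested.

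Genes took a smaller part of the NT_UGI regions. Protein-coding genes held 35.7% and 35.9% of region bases in NT_UGI and 36.4% and 36.8% in WT, against 44.4% of the known genome. The means (35.8% ± 0.146 and 36.6% ± 0.285, SD, n = 2) differed by -0.74 percentage points, and both NT_UGI libraries lay below both WT libraries. The exact permutation p was 0.333, the smallest that 2 libraries against 2 allow. Exons held 1.63% and 1.39% in NT_UGI against 1.65% and 1.70% in WT, and windows of 2 kb on either side of gene starts held 0.362% and 0.320% against 0.389% and 0.394%. Bases outside any annotated gene made up 45.3% and 45.2% in NT_UGI against 44.8% and 44.6% in WT. Without NT_UGI replicate 2 the difference in exons shrank from -0.171 to -0.0491 points, while that in protein-coding genes was -0.845 points. With all regions required to reach a log2 value of 0.33, the highest of the 4 thresholds, protein-coding genes held 35.4% in both conditions and the difference was 0.0083 points. That cut left WT replicate 1 unchanged but took the autosomal covered share of WT replicate 2 from 11.5% to 7.51%. In the 250 Mb of highest log2 values of each library the difference was -0.861 points, and in regions of at least 5 kb -0.896 points. In all, 9 of 24 measures of length, level and position kept the groups apart, each at an exact permutation p of 0.333 (adjusted p = 0.888 by the Benjamini-Hochberg method over the 24).

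Covered share by chromosome ranged from 1.27% on chromosome 19 to 20.8% on chromosome 13 among the autosomes of NT_UGI replicate 1, and the order of chromosomes was much alike in the 4 libraries. Both NT_UGI libraries lay below both WT libraries on 8 of 24 chromosomes (2, 3, 6, 7, 12, 14, 18 and X) and above both on none. When each library was cut to its 250 Mb of highest log2 values, so that totals were equal, NT_UGI lay below on 2 chromosomes and above on 3. The widest gap was on chromosome X, with 5.69% and 6.38% in NT_UGI and 6.66% and 7.76% in WT, a difference of -1.18 percentage points against -0.165 over the autosomes. With equal totals the shares of X were 3.27% and 3.86% in NT_UGI and 3.81% and 4.72% in WT, and the groups overlapped.

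Regions on X were also shared less between libraries than those on autosomes. The Jaccard index on X was 0.189 between WT replicates, 0.176 between NT_UGI replicates and 0.164 to 0.207 between conditions, against 0.350 to 0.418 over all pairs on the autosomes. The N50 on X was 3500 and 3200 bp in NT_UGI and 3400 bp in both WT libraries, whereas on autosomes it was 5300 and 5000 bp in NT_UGI and 5100 and 5000 bp in WT. Bases in regions of all 4 libraries made up 0.579% of X, against 3.29% of the genome. In K562 regions covered 9.28% of X.

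No 100 kb bin passed the test for a different covered share. Of 29437 bins with at least 50% known bases, 24049 had a region in at least 1 of the 4 libraries and were tested with limma, and 0 (0%) passed a Benjamini-Hochberg adjusted p of 0.05. At an unadjusted p of 0.05, 870 bins (3.62%) passed. Both NT_UGI libraries lay above both WT libraries in 3078 bins (12.8%) and below both in 3811 (15.8%). With 2 libraries against 2, an exact permutation test could give such a separation no p below 0.333. With equal totals of 250 Mb the counts became 2774 and 2763 bins, which are nearly equal. With all regions at a log2 value of 0.33 or more, they became 3501 and 1576. Totals were unequal at that cut, with autosomal covered shares of 11.6% and 7.51% in WT and 10.1% and 11.2% in NT_UGI. Between single libraries the median absolute difference was 2.90 percentage points for the WT replicates and 3.10 for the NT_UGI replicates. For a WT library with an NT_UGI library it was 2.6 to 3.2 points. Between group means it was 2.05 points, which cannot be set against these, since means of 2 libraries vary less than single libraries. Across the bins, Pearson's r of covered share was 0.934 between WT replicates, 0.928 between NT_UGI replicates and 0.917 to 0.945 between conditions, over bins that are not independent of each other.

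Bins that kept the groups apart were scattered. The 3078 higher bins fell into 2691 runs of adjacent bins and the 3811 lower bins into 3158 runs. The longest run of higher bins had 5 bins, at chr14:85900001-86400000, which holds no protein-coding gene. Its covered share was 33.7% and 32.6% in NT_UGI and 25.8% and 24.3% in WT, with 29.9% and 25.02% in NT_UGI_MMR and 18.5% in K562. The next by size and genome order, of 4 bins, were chr3:24300001-24700000, which holds the nuclear receptor genes RARB and THRB, and chr4:46300001-46700000, which holds GABRA2, a GABA-A receptor subunit gene. At RARB and THRB the covered share was 16.5% and 16.2% in NT_UGI against 10.2% and 9.80% in WT. There NT_UGI_MMR had 16.1% and 15.35%, and K562 had 17.2%. At GABRA2 the covered share was 38.55% and 34.7% in NT_UGI against 28.4% and 26.6% in WT. There NT_UGI_MMR had 29.4% and 34.4%, and K562 had 30.2%.

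The longest runs of lower bins had 4 bins, and the first 3 in genome order were taken. At chr1:197000001-197400000, with CRB1, ASPM and ZBTB41, the covered share was 25.3% and 25.025% in NT_UGI against 33.4% and 36.1% in WT. At chr2:44300001-44700000, with CAMKMT and the amino acid transporter gene SLC3A1, it was 11.9% and 10.2% in NT_UGI against 19.7% and 18.5% in WT. At chr2:209200001-209600000, with MAP2, which encodes a neuronal microtubule-associated protein, it was 21.3% and 18.2% in NT_UGI against 27.4% and 34.5% in WT. NT_UGI_MMR had 28.3% and 33.6% at ASPM and 27.1% and 28.4% at MAP2. At SLC3A1 it had 12% and 12.7%, close to NT_UGI and below WT. K562 had 36.2% at ASPM, 11.9% at SLC3A1 and 24.55% at MAP2. These 6 runs were chosen for the separation of their libraries, so the values describe them and no test was made. The merged WT and NT_UGI lists put NT_UGI higher in 2816 of the 3078 higher bins and lower in 3362 of the 3811 lower bins. The authors called these lists on pooled reads of the same libraries by which the bins were chosen. The direction in them is thus no separate check.

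Most protein-coding genes held no region at all. Of 20033 genes, 5919 and 6685 held at least part of a region in NT_UGI replicates 1 and 2, and 6444 and 6616 in WT replicates 1 and 2. Regions of all 4 libraries reached 4625 genes, and 11650 genes held none in any library. The genes without regions were short and GC-rich, with a median length of 14.01 kb and a median GC content of 51.1%, against 107.9 kb and 38.2% for the genes reached in all 4. A region in both NT_UGI libraries and no WT library was found in 132 genes, and the reverse in 227. In the first kind the median of the highest covered share was 4.58% of the gene, and in the second 5.94%. UNG, the gene of the enzyme that UGI blocks, held no region in any of the 4 libraries, in NT_UGI_MMR or in K562.

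No gene passed the test either. Of 7801 protein-coding genes of at least 10 kb with a region, 0 (0%) passed an adjusted p of 0.05 in limma, and 286 (3.67%) passed an unadjusted p of 0.05. Both NT_UGI libraries lay above both WT libraries in 839 genes (10.8%) and below in 1234 (15.8%). Without the filter on genes that hold no region, limma called 2 genes lower in NT_UGI, IDO2 (0.367% of the gene in either WT library, 0% in either NT_UGI library) and PLCG2 (0.109% against 0%), whose replicates had equal values and so no spread.

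The genes named next kept the groups apart and had the widest gaps among genes of at least 50 kb, and since they were chosen for that their values are a description. Of the 10 genes higher in NT_UGI, the widest gap was at EAF2. EAF2, which encodes a transcription elongation cofactor, was covered for 26.3% and 40.3% of its length in NT_UGI and 16.7% and 10.5% in WT. FANCM, a DNA translocase gene of the Fanconi anaemia pathway, had 16.2% and 34.5% against 10.3% and 7.68%, and POLK, the gene of a translesion DNA polymerase, had 25.2% and 46.7% against 15.7% and 24.6%. In all 3 genes NT_UGI replicate 2 was well above its replicate. Without it the differences between group means were 12.7 points at EAF2 in place of 19.7, 7.17 at FANCM in place of 16.3 and 5.04 at POLK in place of 15.8, and without NT_UGI replicate 1 they were 25.5 at FANCM and 26.5 at POLK. NT_UGI_MMR had 23.2% and 16.7% at EAF2 and 21.1% and 25.1% at POLK. At FANCM it had 4.46% and 1.83%, below WT.

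TANK, an adaptor gene of NF-kappa B signalling, had 35.6% and 30.5% in NT_UGI and 22.4% and 12.5% in WT. DYNC1I2, which encodes a dynein intermediate chain, had 35.1% and 32.8% against 22.3% and 17.7%. GABRA4, a GABA-A receptor subunit gene in the same cluster as GABRA2, had 40.04% and 39.4% against 28.8% and 22.4%. EFR3A, IL15, NAF1 and TMPRSS11A completed the 10 genes, with differences between group means of 13.9 to 14.5 percentage points. EFR3A had 53.6% and 41.3% against 34.7% and 31.1%, and IL15, a cytokine gene, had 31.7% and 42.5% against 25.6% and 19.8%. NAF1 had 39.1% and 19.4% against 18.001% and 11.6%, so that its NT_UGI replicate 2 lay close to WT. Without NT_UGI replicate 1 the difference was 8.35 points at EFR3A and 4.55 at NAF1, and without NT_UGI replicate 2 it was 9.04 at IL15 and 24.3 at NAF1. NT_UGI_MMR had 46.5% and 50.8% at EFR3A, 31.6% and 29.1% at IL15 and 31.1% and 53.03% at GABRA4, above both WT libraries. It had 15.002% and 26.1% at TANK, 17.95% and 27.8% at NAF1 and 21.04% and 25.5% at DYNC1I2. In TANK, NAF1 and DYNC1I2 its lower value lay below the higher WT value. The adjusted p in limma was 0.902 for each of the 10.

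Among the genes lower in NT_UGI, SLC36A4, an amino acid transporter gene, had the widest gap, with 57.8% and 13.75% in NT_UGI against 64.9% and 59.7% in WT. That gap rested on NT_UGI replicate 2, since replicate 1 lay within 2 percentage points of WT replicate 2. Without NT_UGI replicate 2 the difference was -4.46 points in place of -26.5, and without NT_UGI replicate 1 it was -48.5. ASPM, a spindle gene linked to microcephaly, had 34.4% and 16.8% against 40.4% and 50.8%. SLC7A11, the cystine transporter gene, had 31.8% and 20.7% against 40.004% and 43.3%. Without NT_UGI replicate 2 the difference was -11.3 points at ASPM in place of -20.1 and -9.90 at SLC7A11 in place of -15.4. NT_UGI_MMR had 46.1% and 57.1% at SLC36A4, 44.7% and 48.6% at ASPM and 27.5% and 17.1% at SLC7A11. K562 had 45.1% at ASPM and 35.4% at SLC7A11.

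A pair of neighbouring protease genes on chromosome 4 differed in opposite directions. TMPRSS11D (chr4:67820876-67884002) had 13.2% and 12.7% in NT_UGI and 32.7% and 30.6% in WT. TMPRSS11A (chr4:67909395-67964140) had 20.0% and 22.3% in NT_UGI and 3.29% and 11.1% in WT. NT_UGI_MMR had 23.6% and 30.4% at TMPRSS11D and 17.9% and 11.2% at TMPRSS11A. The lower side also held YIPF7, CAPS2, NAT1, SHCBP1L and BOLL. NAT1, an arylamine N-acetyltransferase gene, was listed at 0% in both NT_UGI libraries and at 8.64% and 22.9% in WT, where the difference was -15.8 points with both WT libraries and -8.64 without WT replicate 2. SHCBP1L had 1.49% and 1.12% against 12.9% and 20.5%. The adjusted p was 0.902 for each of these lower genes as well.

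The most covered genes were so in both conditions. SI, the sucrase-isomaltase gene of the intestinal brush border, had 76.6% and 81.0% in NT_UGI and 82.3% and 79.1% in WT. BCHE, which encodes butyrylcholinesterase, had 80.6% and 81.1% in NT_UGI and 73.2% and 68.4% in WT. CDH19 had 84.8% and 68.2% against 72.9% and 74.4%, GABRG1 75.8% and 74.9% against 68.3% and 65.6%, and EPHA7, an ephrin receptor gene, 78.2% and 60.2% against 68.6% and 67.1%. All 5 genes have a GC content of 31.3% to 33.3%, and in K562 their covered shares were 56.1% to 74.3%. Adjusted p-values in limma were 0.903 for BCHE and GABRG1 and 0.975 to 0.987 for the other 3.

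A region in any of the 4 libraries of WT and NT_UGI was held by 2 of 15 genes of uracil excision repair, beside 8383 of all 20033 protein-coding genes (41.8%). TDG, the thymine-DNA glycosylase gene, had 16.4% in WT replicate 1, 6.94% in NT_UGI replicate 2 and 0% in the others. POLB, the gap-filling polymerase gene, had 1.499% and 4.50% in WT and 0% in both NT_UGI libraries. MBD4, a further uracil-excising glycosylase gene, held none in the 4 libraries, but had 6.50% in the merged NT_UGI list and 0% in the merged WT list. Of 11 cytidine deaminase genes only APOBEC4 held regions, with 32.7% in WT replicate 2, 35.9% in NT_UGI replicate 2 and 0% in the first replicate of either condition. Of 16 genes of thymidylate and dUTP metabolism 4 held regions. DPYD, which encodes the enzyme that breaks down pyrimidines, had 36.7% and 34.2% in NT_UGI and 40.6% and 35.4% in WT. RRM2B, a ribonucleotide reductase subunit gene, had 27.9% and 22.3% against 37.7% and 31.9%. DUT, the dUTPase gene, was listed at 9.71% in WT replicate 2, at 0% in the other 3 libraries of WT and NT_UGI and at 7.28% in K562, and RRM1 at 2.26% in WT replicate 2 and 0.226% in NT_UGI replicate 2. The median covered share of these lists was 0% in every library, as it was over all protein-coding genes, and 1 of 2 repair genes tested (POLB) and 1 of 4 metabolism genes tested (RRM2B) were lower in both NT_UGI libraries, beside 15.8% of the 7801 genes tested.

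Of 12 type II cadherin genes, a family of cell adhesion receptors, 10 held regions in all 4 libraries, beside 23.1% of all protein-coding genes. The median length of the 12 was 170 kb, against 27.5 kb over all protein-coding genes. The median covered share of the 12 was 30.3% and 24.2% in NT_UGI and 27.4% and 30.3% in WT. Over all protein-coding genes it was 0% in every library. CDH10 had 69.4% and 46.4% in NT_UGI against 58.1% and 61.9% in WT, and CDH18 had 47.8% and 40.1% against 46.1% and 46.1%. In these genes the NT_UGI replicates lay on either side of WT. Of the 10 genes tested CDH6 and CDH11 were higher in both NT_UGI libraries and CDH9 was lower, beside 10.8% and 15.8% of all genes tested. CDH6 had 9.08% and 11.5% against 7.23% and 6.64%, CDH11 had 4.72% and 5.59% against 4.06% and 1.21%, and CDH9 had 53.7% and 43.6% against 56.0% and 54.8%.

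All 15 very long genes of common fragile sites, which break under replication stress, held regions in all 4 libraries, beside 23.1% of all protein-coding genes. The median length of the 15 was 1552 kb, against 27.5 kb over all protein-coding genes, and a longer gene has more room for a region. The median covered share of the 15 was 16.3% and 18.7% in NT_UGI and 17.9% and 19.4% in WT. Both NT_UGI libraries lay below WT in 4 of the 15 and above in 1, beside backgrounds of 15.8% and 10.8%. DMD, the dystrophin gene on chromosome X, had 13.9% and 10.6% in NT_UGI against 16.8% and 16.9% in WT, and FHIT had 2.01% and 4.51% against 5.98% and 5.19%. IMMP2L had 24.7% and 23.2% against 30.6% and 26.3%, and CNTNAP2 had 19.5% and 20.3% against 20.8% and 21.1%. AUTS2 was the higher gene, with 2.74% and 2.75% against 2.57% and 2.42%. The median difference between conditions over the list was -1.11 percentage points, against -0.257 over the 7801 genes tested. Those 7801 genes had lower median covered shares, at 3.60% and 5.09% in NT_UGI and 4.85% and 5.19% in WT. The differences in points thus start from unlike levels.

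Of 14 colon epithelium genes 4 held a region in any of the 4 libraries, beside 41.8% of all protein-coding genes. LGR5, the stem cell marker gene of the crypt, had 5.60% and 4.78% in NT_UGI and 10.5% and 8.53% in WT. CDH17 had 5.21% and 3.55% in NT_UGI and 2.55% and 4.44% in WT. KRT20 had 0% in both NT_UGI libraries and 5.47% and 6.54% in WT, and GPA33 had at most 0.616% in any of the 4 libraries of WT and NT_UGI. Of the 3 members of at least 10 kb with a region, LGR5 had both NT_UGI libraries below both WT libraries, beside 15.8% of all genes tested. The other 10, among them CDX2, VIL1, EPCAM and CDH1, held no region in any of the 4 libraries.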

How the data were processed

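U-DNA-Seq was carried out by the authors on enriched and input DNA. Per the labels and the study's methods, reads were aligned to GRCh38 with BWA 0.7.17-r1194 and processed with SAMtools 1.9-50 and Picard, and log2 ratios of enriched over input coverage in 100 bp bins, smoothed over 5000 bp, were computed with deepTools 3.2.1. Bins above a threshold, which the authors chose per library for similar total lengths, were joined into regions, and the deposited lists give each region's position and a log2 value in a column without a heading. Read counts were not used, so the depth is unknown and no counting error could be given. Of 22 region lists, the 4 of WT and NT_UGI were analysed, with 5 more (both merged lists, NT_UGI_MMR and K562) for reference. Regions were laid on a 100 bp grid of known bases of GRCh38 with GENCODE release 44 genes; regions on other contigs were left out.

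Covered shares in percent were tested with limma 3.58.1 (R 4.3.3, lmFit and eBayes with trend, Benjamini-Hochberg adjustment over all features), after tests on simulated data. Library measures were tested with two-sided exact permutation tests over 6 splits. Other computing used Python 3.11.15, NumPy 2.4.6, SciPy 1.17.1 and matplotlib 3.10.9. Gene lists, regions and genes to name were chosen with earlier results of these data known. Named genes were, per direction, the 10 of at least 50 kb with the largest difference in mean covered share among those whose groups do not overlap (none passed the adjusted threshold), the 5 of at least 50 kb with the highest mean covered share, list members where few held regions, and UNG; 1 lower gene is not reported here. Alternatives were a minimum region length of 5 kb, a log2 value of at least 0.33, the top 250 Mb of each library, autosomes, merged lists, other bin sizes, gene windows and scales, and leaving out each library.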

Additional observations from a re-analysis of the deposited data

How the results depend on the processing

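Of 80 recomputed values of the 7 main comparisons, 71 moved by less than the SD between replicates (for the Jaccard index, between the 4 pairs across conditions) or left the count as it was, though some of them changed sign. No bin passed in any of the settings run, and genes passed only without the filter on genes with no region (2 genes). The replicate numbers did not pair the libraries (correlation of deviations of same-numbered libraries over bins 0.0027), and limma with the replicate number as a block called 0 bins and 0 genes. The share of region bases in protein-coding genes differed, NT_UGI minus WT, by -0.501 points for all annotated genes, -0.171 for exons, -0.490 in the merged lists and 0.0083 with a log2 value of at least 0.33. In the top 250 Mb of each library it differed by -0.861 points. The N50 differed by 300 bp in the merged lists and by -350 bp with a log2 value of at least 0.33, and the log2 value of shared bases by 0.076 in the merged lists. Without 1 library each, that log2 difference ran from -0.029 to 0.064, the N50 difference from -150 to 250 bp, the GC difference from -0.286 to 0.103 points, the gene share from -0.943 to -0.540 points, the Jaccard difference from -0.0343 to 0.0258, and both counts stayed at 0. The differences at 3 highly covered genes turned without NT_UGI replicate 1: SI ran from -4.12 to 0.305 points, CDH19 from -5.50 to 11.1 and EPHA7 from -7.62 to 10.4. The causes were not tested. The merged lists, 1 per condition, gave no Jaccard difference and no bin or gene test. With 2 libraries per condition and unknown depth, moderate differences in covered share could not be detected.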

Other observations

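Regions on contigs outside the main chromosomes were left out of every comparison. There were 333 and 359 such regions in NT_UGI and 343 and 364 in WT, over 757.8 and 858.1 kb in NT_UGI and 818.3 and 814.8 kb in WT, so the conditions overlapped. On chromosome Y 6 and 7 regions were listed in NT_UGI and 4 and 8 in WT. Regions of a single 100 bp bin numbered 6075 and 8882 in NT_UGI and 8502 and 10316 in WT.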
